A study of Caenorhabditis elegans with 16 samples.

Results

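Insulin-like peptide genes were the subject of these comparisons, that is every gene whose name is ins- followed by a number, together with daf-28. This rule found 40 of the 46589 genes in the deposited table, and it used gene names only, not expression values. RNA was sequenced from whole wild-type N2 *C. elegans* in 4 groups of 4 libraries, each library made from its own plate of worms. In EMBRYO TM, embryos obtained by bleaching were kept for 24 h in S medium with tunicamycin (TM) at 1.25 μg/ml, and in L4 TM the same was done with worms at the L4 larval stage. EMBRYO CNT and L4 CNT were the control groups of the same stages. By the protocol in the labels, all worms were then moved to plates, and they are described as adults on Day 1. The authors place the L4 treatment between the L4 stage and Day 1 of adulthood, so time on plates after it is unclear. All 4 groups carry the same wild-type genotype, and each library pools a population of worms, so no value belongs to a single animal or tissue.

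Insulin-like peptides are small secreted hormones that bind DAF-2, the only insulin/IGF-like receptor known in this worm. Agonists activate DAF-2, which signals through the kinases AGE-1 and AKT to keep the transcription factor DAF-16, a FOXO protein, out of the nucleus. Antagonists bind the same receptor without activating it. This pathway is known for its control of dauer arrest, growth, stress resistance and lifespan, and most of the peptides are made in neurons, with some in the intestine, muscle and other tissues. From worm genetics, 7 members were treated as agonists (daf-28, ins-3, ins-4, ins-6, ins-7, ins-33 and ins-35) and 3 as antagonists (ins-1, ins-17 and ins-18). The other 30 were given no direction.

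Expression was measured as FPKM, fragments per kilobase of gene and per unit of library size, which can be compared between genes because it is per length. These are short genes, so the recovered reads behind a value are few. Reads on genes ranged from 12361026 to 26922902 in 15 of the 16 libraries. L4 TM replicate 4 stood apart from these. It had 47193068 reads, but only 0.702% of its detected genes were covered by a single read, compared with 8.97% to 10.9% in the other 15. It also listed 26 of the 40 insulin-like peptide genes at 0, where the other libraries listed 4 to 17 at 0. Calls of members in the L4 comparison are therefore given with and without it. EMBRYO TM replicate 4 also differed more from the other libraries of its group than they did from each other. Calls of members that change without it are named, but the other genes named below were tested only with it. L4 CNT replicate 2 likewise differed more from the other libraries of its group than they did from each other. It had the fewest reads, 12361026, and listed 14 members at 0. Without L4 CNT replicate 2, the L4 comparison still gave 3 members lower and 1 higher, beside 1799 lower and 2758 higher of 11888 genes.

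The labelled stage was checked against marker genes. The 6 yolk genes, which adult intestine expresses strongly, summed to 4417 ± 839 FPKM in EMBRYO CNT, 16110 ± 6864 in EMBRYO TM and 21357 ± 1739 in L4 CNT. Of these, vit-2, vit-5 and vit-6 averaged 554 to 3001 FPKM in EMBRYO CNT, while vit-1, vit-3 and vit-4 averaged 1.43 to 4.22 there, 437 to 548 in EMBRYO TM and 748 to 1137 in L4 CNT. Summed muscle markers (unc-54, myo-3 and unc-15) ran the other way, at 2200 FPKM in EMBRYO CNT and 266 FPKM in L4 CNT. The authors' own columns of group means head both EMBRYO groups with L1 and both L4 groups with D1. Stage and tissue makeup therefore cannot be told apart from the time of treatment when the EMBRYO and L4 groups are compared. The yolk genes also differed between EMBRYO CNT and EMBRYO TM, as did the summed muscle markers (2200 and 864 FPKM). A difference in stage or tissue makeup between the EMBRYO groups was not tested and cannot be told apart from an effect of TM.

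The whole family was most abundant in EMBRYO CNT. Summed over the 40 genes, expression was 150 ± 9.94 FPKM in EMBRYO CNT (SD, n = 4), 76.9 ± 4.95 in EMBRYO TM, 62.3 ± 5.81 in L4 CNT and 34 ± 1.97 in L4 TM. The ranges of the groups did not overlap, and both TM groups lay under the controls of their own stage. Of the members with an assigned direction, the antagonists differed more in summed level between the EMBRYO groups. They summed to 58.1 ± 4.11 FPKM in EMBRYO CNT and 26.9 ± 2.77 in EMBRYO TM, while the 7 agonists summed to 21.2 ± 0.740 and 14.9 ± 2.21. In the L4 groups the antagonists summed to 12.5 ± 1.63 and 5.52 ± 2.67 FPKM, and the agonists to 16 ± 5.31 and 10.6 ± 4.01, with overlapping libraries for the agonists. Without L4 TM replicate 4 the family summed to 33.5 ± 2.12 FPKM in L4 TM (n = 3), the antagonists to 6.83 ± 0.644 and the agonists to 8.63 ± 0.603, and the highest agonist sum of these libraries (9.27) lay under the lowest L4 CNT library (12). Whether antagonists or agonists differed more between the L4 groups thus turned on this library. The sums rest on a few genes, since ins-17 alone made up 30.0% of the family in EMBRYO CNT and ins-19 made up 26% in L4 CNT.

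**Figure D1:**
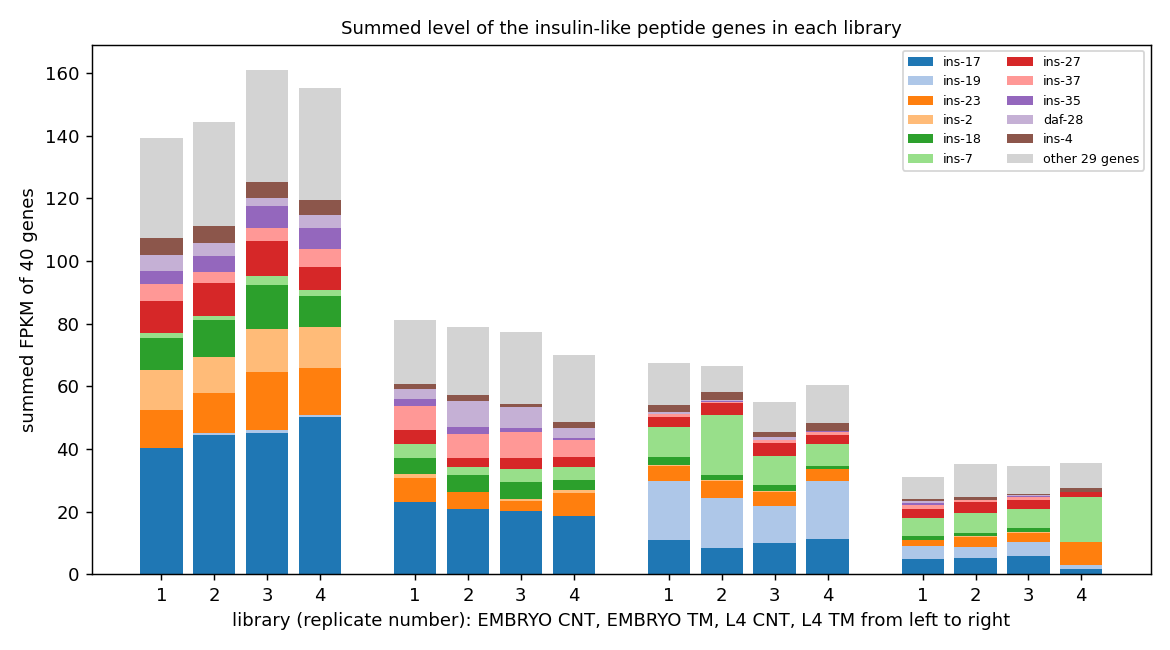
Summed FPKM of the 40 insulin-like peptide genes in each of the 16 libraries, with 11 genes coloured and the other 29 in grey. The EMBRYO CNT bars reach 139 to 161 FPKM and the L4 TM bars 31.1 to 35.4, and ins-19 takes a visible part only in the L4 groups.

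Of the 40 genes, 26 had their highest group mean in EMBRYO CNT, 11 in EMBRYO TM, 2 in L4 CNT (ins-7 and ins-19) and 1 in L4 TM (ins-31). A group mean of at least 1 FPKM was reached by 22 genes in EMBRYO CNT, 14 in EMBRYO TM, 11 in L4 CNT and 8 in L4 TM, and by 23 in at least 1 group. The other 17 were ins-5, ins-6, ins-8, ins-9, ins-13, ins-14, ins-15, ins-16, ins-21, ins-24, ins-26, ins-30, ins-31, ins-32, ins-33, ins-38 and ins-39. Their group means did not exceed 0.966 FPKM, they had 1 to 100 reads each over all 16 libraries, and 8 of them had fewer than 10. They entered no test with the filter. With no filter on low values, 4 of the 17 were called between the controls, ins-33, ins-30 and ins-6 higher in EMBRYO CNT (30 and 5, 34 and 6, and 16 and 4 reads) and ins-31 lower (0 and 21 reads), with limma adjusted p of 0.000486, 0.00161, 0.0283 and 0.000642, beside 35.3% and 22.3% of 25964 genes. In that fit ins-9 was higher in EMBRYO TM (7 reads and 1 in the controls, limma adjusted p = 0.0147, beside 13.9% of 26449 genes) and ins-24 was lower in L4 TM (3 and 10 reads, 0.0182, beside 8.23% of 22022 genes). Few reads limit what can be detected for the rest, and a low value does not show that a gene is silent in the few cells that make it.

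**Figure D2:**
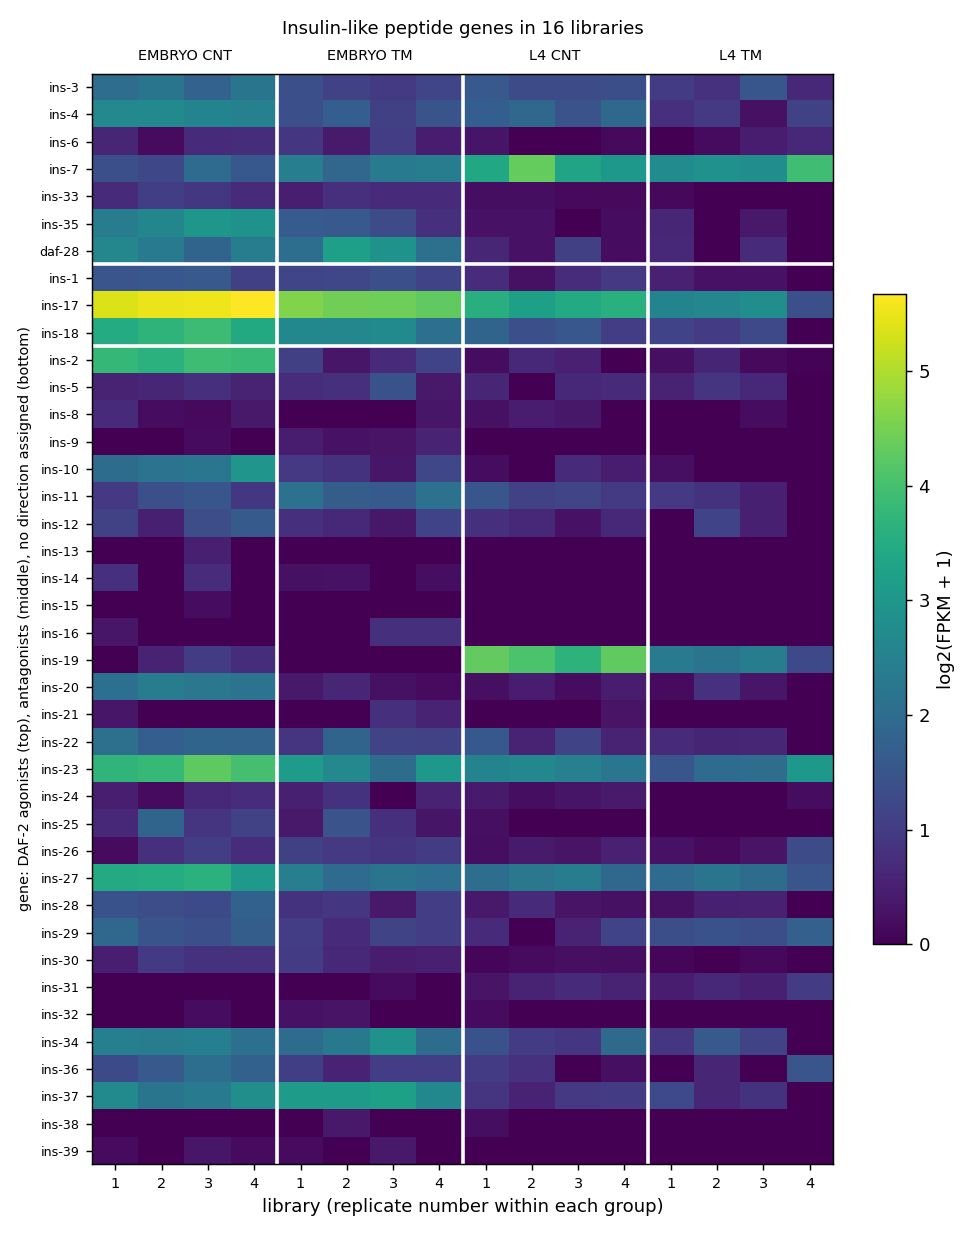
Expression of the 40 genes (rows, on log2(FPKM + 1)) in the 16 libraries (columns), with agonists on top, antagonists in the middle and genes of no assigned direction below. EMBRYO CNT is the brightest block for most rows, ins-7 and ins-19 are brightest in L4 CNT, and L4 TM replicate 4 shows 26 genes at 0.

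Many members lie next to each other. The 40 genes form 7 groups of neighbours within 20 kb of each other, which hold 26 of them, and 14 stand alone. A group on chromosome II (5988526 to 6011321 in the coordinates of the deposited table, whose genome build is not stated) holds ins-2, ins-3, ins-4, ins-5, ins-6 and ins-20. Another on chromosome I (14012442 to 14037803) holds 7 genes, ins-24 to ins-30. Neighbours differed widely in level. Within the chromosome II group, ins-2 averaged 12.8 FPKM in EMBRYO CNT, ins-4 5.09, ins-20 3.70 and ins-3 3.19, while ins-5 and ins-6 averaged 0.547 and 0.478. On chromosome II at 3126032 to 3127811, ins-19 averaged 16.3 FPKM in L4 CNT and its neighbour ins-31 only 0.439.

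The first comparison asked what TM given to embryos changed. Of the 21 members with a mean of at least 1 FPKM over the 8 libraries, 14 were lower in EMBRYO TM, 3 were higher and 4 did not pass the test (limma on log2(FPKM + 1), Benjamini-Hochberg adjusted p under 0.05 over all 14930 genes tested). Over all those genes, 27.0% were lower and 25.7% were higher. The median change of the 21 members was -0.74 on the log2 scale, and that of all genes was -0.03. With a further threshold of 1 on the log2 fold change, 9 members were lower and 0 were higher, beside 7.61% and 5.06% of all genes. Of the 21, 7 exceeded 1 FPKM on average in EMBRYO CNT but not in EMBRYO TM (ins-2, ins-10, ins-20, ins-25, ins-28, ins-29 and ins-36), so they entered the test through the group where they were high. The remaining 14 exceeded 1 FPKM in both groups, and of these 8 were lower and 3 higher.

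Among the agonists, ins-4, ins-3 and ins-35 fell. For ins-4, a peptide that promotes reproductive growth over dauer arrest, EMBRYO CNT replicates 1 to 4 had 5.35, 5.47, 4.92 and 4.64 FPKM and EMBRYO TM replicates had 1.63, 2.22, 1.12 and 1.79. Every TM library lay under every control, and the means differed by 3.01-fold (log2 fold change -1.19, SE 0.138, limma adjusted p = 0.000127). ins-35 fell from 4.19, 5.10, 7.06 and 6.47 FPKM to 2.15, 2.01, 1.5 and 0.722, without overlap (log2 fold change -1.39, SE 0.216, limma adjusted p = 0.000736). ins-3, the neighbour of ins-4, fell from 2.45 to 3.64 FPKM in the controls to 0.958 to 1.60 in TM (-0.90 on the log2 scale).

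The agonists daf-28 and ins-7 did not follow them. daf-28, which is made in sensory neurons and represses dauer entry, had 5.15, 4.0, 2.54 and 4.25 FPKM in EMBRYO CNT and 3.12, 8.23, 6.59 and 3.26 in EMBRYO TM. Of the TM libraries, 2 lay above all controls and 2 among them, and the difference did not pass the test (0.28 on the log2 scale, 95% interval -0.37 to 0.93, limma adjusted p = 0.44). ins-7, an intestinal and neuronal agonist whose own expression is repressed by DAF-16, had 1.62, 1.34, 2.94 and 1.97 FPKM in the controls and 4.39, 2.68, 3.98 and 4.18 in TM, with 1 control library above the lowest TM library. It was 1.94-fold higher by the means (log2 fold change 0.71, SE 0.189, limma adjusted p = 0.0119). This call was lost when libraries were scaled by their total reads (0.60, adjusted p = 0.0517) and with voom on the recovered reads (adjusted p = 0.0558), settings that move the median of all genes by -0.15 and -0.17. The agonists ins-6 and ins-33 stayed under the filter, with group means of 0.478 to 0.796 FPKM.

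Of the antagonists, ins-17 and ins-18 fell and ins-1 did not pass the test. ins-17, the most abundant member of the family in EMBRYO CNT, had 40.2, 44.5, 45.0 and 50.1 FPKM there, above 89.7% of protein-coding genes by its mean. In EMBRYO TM it had 23.1, 20.8, 20.3 and 18.7 FPKM, clear of the controls and 2.17-fold lower by the means (log2 fold change -1.08, SE 0.0922, limma adjusted p = 2.12e-05). This gene carried the most reads of the family, 1918 over the EMBRYO CNT libraries and 728 over the EMBRYO TM libraries, so its values are the best determined here. ins-18 had 10.2, 11.9, 13.8 and 9.84 FPKM in EMBRYO CNT and 5.31, 5.19, 5.55 and 3.19 in EMBRYO TM (log2 fold change -1.11, SE 0.163, limma adjusted p = 0.000515). EMBRYO TM replicate 4 was the lowest of its group, and without it the change in ins-18 was -0.96. ins-1 averaged 1.70 ± 0.411 FPKM and 1.36 ± 0.178 FPKM with overlapping libraries, and its 95% interval ran from -0.54 to 0.17.

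The largest decreases were in genes with no assigned direction. ins-2 had 12.8, 11.4, 14 and 13.1 FPKM in EMBRYO CNT and 1.11, 0.276, 0.590 and 1.19 in EMBRYO TM. The lowest control was several times the highest TM library, and the means differed by 16.2-fold (log2 fold change -2.98, SE 0.175, limma adjusted p = 2.46e-06), with 500 reads in the controls and 27 in TM. ins-20, at the other end of the same group of neighbours, fell from 3.22, 4.33, 3.79 and 3.48 FPKM to 0.313, 0.527, 0.188 and 0.126. This was 12.8-fold by the means (log2 fold change -1.87, SE 0.152, limma adjusted p = 1.55e-05) and rests on 114 and 7 reads.

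A further group of 7 genes with no assigned direction also fell. ins-23 went from 12.1 to 18.4 FPKM in the controls to 2.99 to 7.71 in TM (-1.24 on the log2 scale), ins-27 from 7.33 to 11.3 to 2.96 to 4.40 (-1.25), and ins-10 from 3.02 to 6.84 to 0.276 to 1.30 (-1.51), all without overlap. ins-28, ins-29 and ins-36 fell by less (-0.66, -0.63 and -0.74), also without overlap, and ins-22 overlapped (-0.62). ins-10 and ins-36 overlap protein-coding genes on the opposite strand, T08G5.5 and Y53H1A.7. The sources do not say whether reads were counted by strand, so reads of such pairs cannot be told apart. ins-7 and ins-34 overlap noncoding genes in the same way. The call for ins-22 was lost without each of 6 libraries taken out in turn, EMBRYO CNT replicates 1, 3 and 4 and EMBRYO TM replicates 1, 3 and 4 (adjusted p up to 0.0848), and that for ins-28 without EMBRYO CNT replicate 4 (0.0506). The call for ins-36 was lost in a single fit of all 16 libraries (0.0516), and that for ins-22 with no filter on low values.

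Increases were small. ins-11 had 0.911, 1.63, 1.85 and 0.901 FPKM in EMBRYO CNT and 3.40, 2.18, 2.04 and 3.34 in EMBRYO TM, without overlap (log2 fold change 0.69, SE 0.199, limma adjusted p = 0.017), on 27 and 46 reads. ins-37 had 5.52, 3.63, 4.17 and 5.95 FPKM in the controls and 7.73, 7.65, 8.33 and 5.29 in TM, where 1 TM library lay within the controls (log2 fold change 0.51, SE 0.167, limma adjusted p = 0.0302). As with ins-7, both calls were lost with scaling by total reads and with voom. That for ins-11 was also lost without EMBRYO TM replicate 1, and that for ins-37 without each of 5 libraries taken out in turn, EMBRYO CNT replicates 2 and 3 and EMBRYO TM replicates 1, 2 and 3, with adjusted p-values from 0.0522 to 0.0949 over these settings for both genes. The call for ins-37 was also lost with no filter (0.0616) and in the single fit of all 16 libraries (0.0631). ins-25 and ins-34 did not pass the test (-0.38 and -0.04).

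In bulk RNA of whole worms, fewer cells of a type and less RNA per cell cannot be told apart. Neuronal markers moved with the decreases, since 6 of 8 (unc-64, ric-19, rgef-1, unc-104, snt-1 and unc-13) were lower in EMBRYO TM. Over all genes, 27.0% were lower and 25.7% were higher. The median change over the 8 was -0.58, and the summed ranges were 216 to 252 FPKM in the controls and 160 to 204 in TM. Most of both sums was snb-1 (152 and 128 FPKM on average), which did not pass the test. The 3 muscle markers were lower (median -1.59) and the 6 yolk genes higher (median 4.49). The markers daf-7 and trx-1, of the sensory neurons ASI and ASJ, summed to 1.07 to 1.64 FPKM in EMBRYO CNT and to 0.772 to 1.52 in EMBRYO TM, under the filter. The part of these in the result was not tested.

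**Figure D3:**
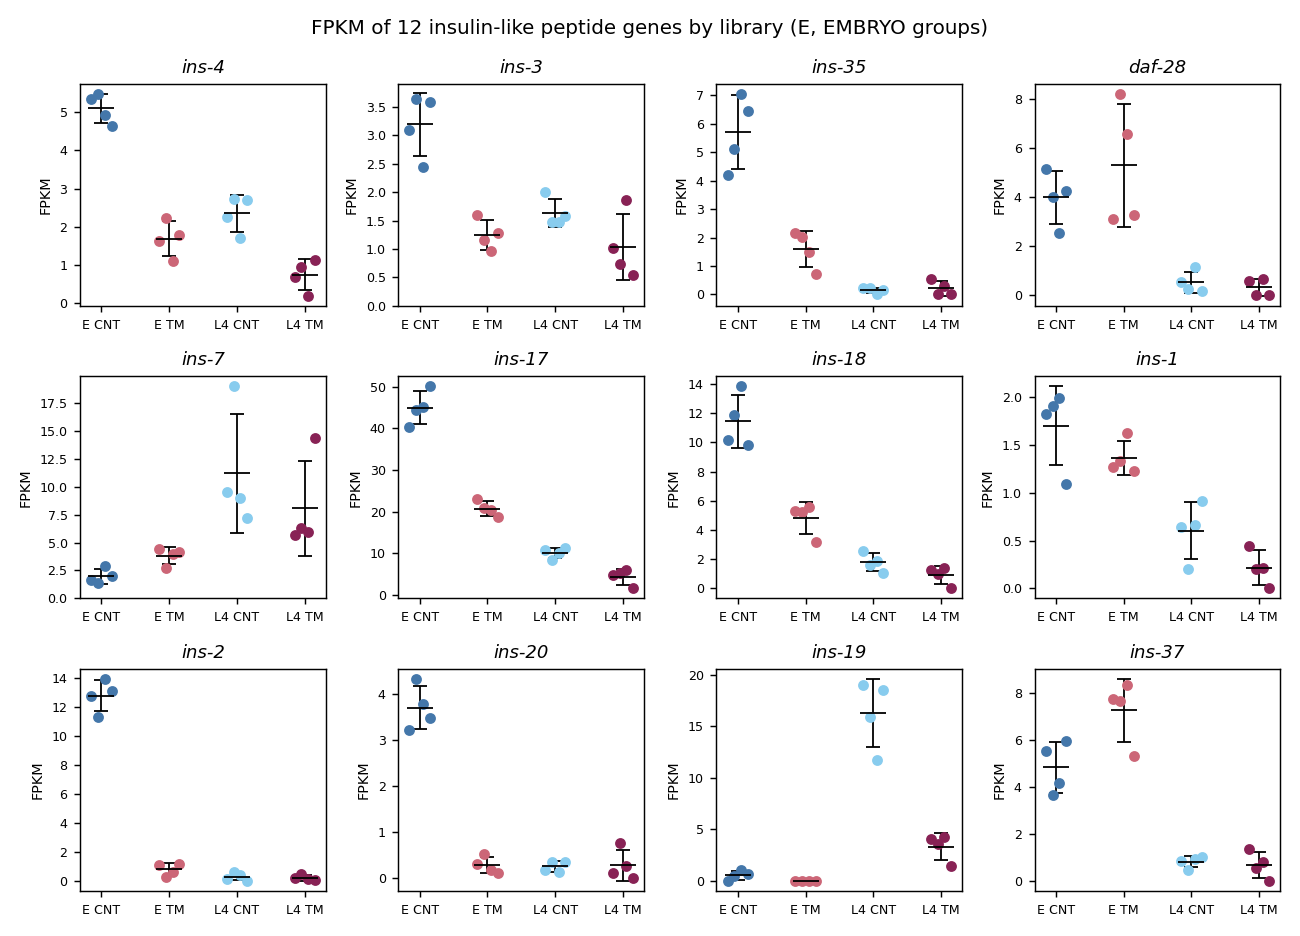
FPKM of 12 insulin-like peptide genes in every library, with the horizontal bar at the group mean and the error bar at 1 SD (n = 4). The EMBRYO TM points of ins-2, ins-20, ins-17, ins-18, ins-4 and ins-35 lie below all EMBRYO CNT points, those of daf-28 lie among or above them, and ins-19 is above 11 FPKM in every L4 CNT library.

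The second comparison asked the same of TM given at the L4 stage. Fewer members were expressed, and 10 were tested. Of these, 3 were lower (ins-4, ins-17 and ins-19), 1 was higher (ins-29) and 6 did not pass the test, where 15.8% of the 11964 genes tested were lower and 20.3% were higher. With the threshold of 1 on the log2 fold change, 2 were lower and 0 were higher, beside 3.2% and 0.585% of all genes. The median change was -0.43 for the 10 members and 0.05 for all genes. ins-19, ins-17 and ins-4 kept their adjusted p under 0.05 in all alternatives that tested them, including those without L4 TM replicate 4. The tested genes ins-4, ins-18 and ins-29 exceeded 1 FPKM on average in only 1 of the 2 groups. They therefore entered the test through the group where they were high. The remaining 7 exceeded 1 FPKM in both groups, and of these 2 were lower and 0 were higher.

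ins-19 was the leading member in L4 CNT, with 18.9, 15.9, 11.7 and 18.5 FPKM, and had 4.09, 3.57, 4.23 and 1.39 in L4 TM. The groups were well apart, with means differing by 4.90-fold (log2 fold change -2.04, SE 0.263, limma adjusted p = 0.000632). Without L4 TM replicate 4, its lowest library, the change was -1.78. ins-17 had 10.8, 8.43, 10.0 and 11.2 FPKM in L4 CNT and 4.86, 5.20, 5.96 and 1.60 in L4 TM, again without overlap (log2 fold change -1.13, SE 0.288, limma adjusted p = 0.0157), and its change was -0.81 without that library. The agonist ins-4 had 2.25, 2.73, 1.72 and 2.71 FPKM and then 0.695, 0.948, 0.200 and 1.15, a 3.15-fold difference of the means (log2 fold change -0.96, SE 0.201, limma adjusted p = 0.00656), and its change was -1.07 without that library.

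ins-29, a gene of no assigned direction in the chromosome I group, was the exception. It had 0.614, 0, 0.455 and 1.22 FPKM in L4 CNT and 1.56, 1.71, 1.57 and 2.33 in L4 TM, without overlap, on 12 and 51 reads (log2 fold change 0.88, SE 0.234, limma adjusted p = 0.019). Of the 51 reads, 28 came from L4 TM replicate 4, and without it the change was 0.79 (limma adjusted p = 0.0307). Its call was lost without L4 CNT replicate 3 (adjusted p = 0.0516) and with a pseudocount of 0.1 (0.06). Its neighbours ins-27 (3.47 ± 0.650 and 2.84 ± 0.740 FPKM) and ins-28 (0.333 ± 0.187 and 0.264 ± 0.209) gave no call, the first for missing the threshold (limma adjusted p = 0.334) and the second for lying under the filter.

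Several other values turned on single libraries. ins-7 had 9.57, 19, 8.99 and 7.2 FPKM in L4 CNT and 5.65, 6.27, 5.92 and 14.4 in L4 TM, so that only replicate 4 overlapped the controls. Its change was -0.44 (limma adjusted p = 0.357) with this library and -0.73 (0.0581) without it. ins-23 had 4.91, 5.32, 4.52 and 3.69 FPKM and then 1.86, 2.95, 3.11 and 7.19, and its change went from -0.34 (limma adjusted p = 0.4) to -0.63 (0.0124) without the library. ins-18, ins-34 and ins-37 were listed at 0 in it, although replicates 1 to 3 averaged 1.20, 1.36 and 0.896 FPKM. Without it, 11 members were tested, of which 4 were lower and 1 was higher, beside 19.9% and 25.9% of all genes. The antagonist ins-18 did not pass the test with or without it (-0.59 and -0.31). The agonist ins-3, at 1.64 ± 0.250 and 1.04 ± 0.578 FPKM, did not pass the test (-0.41, limma adjusted p = 0.141), but did without L4 TM replicate 3 (-0.58, 0.0251).

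**Figure D4:**
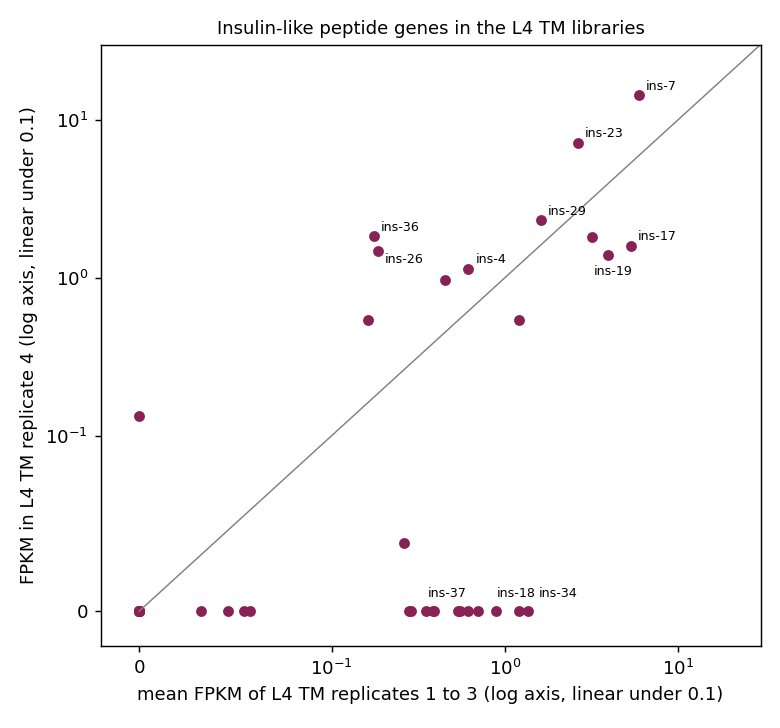
FPKM of each of the 40 genes in L4 TM replicate 4 (vertical axis) plotted against the mean of L4 TM replicates 1 to 3 (horizontal axis), both on log axes that are linear below 0.1. Many genes lie at 0 in replicate 4, including ins-18, ins-34 and ins-37, while ins-7 and ins-23 lie above the line of equality.

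In the L4 comparison, 3 of the 7 neuronal markers tested (rab-3, unc-64 and ric-19) and 2 of 3 muscle markers were lower, beside 15.8% of all genes. The median change of the neuronal markers was -0.23. Their summed ranges were 212 to 268 FPKM in L4 CNT and 184 to 270 in L4 TM. Most of both sums was snb-1, which did not pass the test. The counts of these markers were the same without L4 TM replicate 4. The part of these in the result was not tested.

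**Figure D5:**
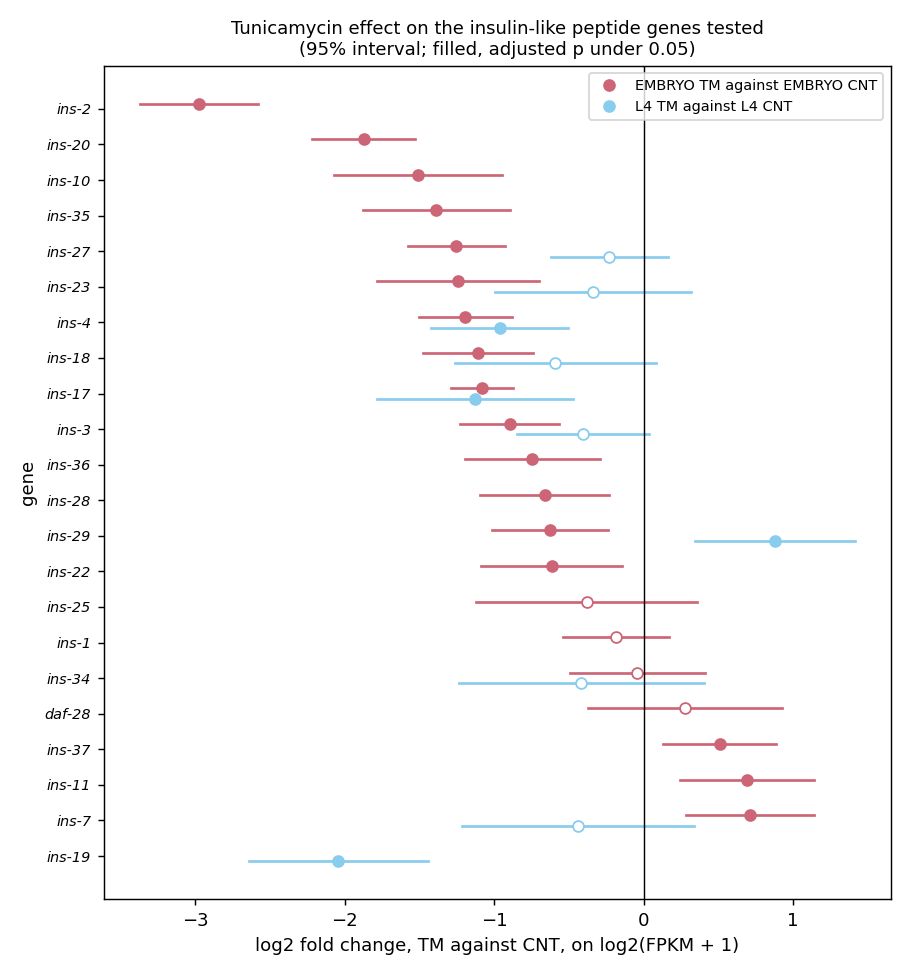
Log2 fold change of TM against control for each gene tested, in the EMBRYO groups (red) and the L4 groups (blue), with 95% intervals and filled points where the adjusted p was under 0.05. Most EMBRYO points lie left of 0, with ins-2 at -2.98, ins-7, ins-11 and ins-37 lie right of it, and ins-29 lies on opposite sides in the stages.

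The difference between the 2 TM effects was tested as an interaction over all 16 libraries, the EMBRYO effect minus the L4 effect. Of 19 members tested, 6 had a lower value (ins-2, ins-10, ins-20, ins-27, ins-29 and ins-35) and 3 a higher value (ins-7, ins-11 and ins-19), beside 14.4% and 14.8% of 13856 genes. ins-2, ins-11, ins-27 and ins-29 kept this call in all alternatives that tested them. Of these, ins-27 was expressed above 1 FPKM in every group. It averaged 9.80 ± 1.71 FPKM in EMBRYO CNT and 3.52 ± 0.629 in EMBRYO TM, but 3.47 ± 0.650 in L4 CNT and 2.84 ± 0.740 in L4 TM (interaction -1.02, SE 0.230, limma adjusted p = 0.0032). ins-29 fell in EMBRYO TM and rose in L4 TM (interaction -1.503, SE 0.288, limma adjusted p = 0.000936).

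Several of the other differences were in genes near 0 in both groups of a stage. ins-2, ins-10, ins-20 and ins-35 averaged 0.0430 to 0.287 FPKM in the L4 groups, and passed the filter through the EMBRYO groups. The calls for ins-10 and ins-35 were lost with a pseudocount of 0.1 and with voom (adjusted p from 0.376 to 0.684 and from 0.111 to 0.321), and that for ins-20 with voom (0.0639). The converse held for ins-19, which averaged 0.537 ± 0.424 FPKM in EMBRYO CNT and had no read in any of the 4 EMBRYO TM libraries (each 0 allows up to 3 reads). Its interaction of 1.47 was 0.12 with a pseudocount of 0.1, 0.18 with voom and -0.38 with voom without L4 TM replicate 4, and none of these passed the test. For ins-11, the EMBRYO increase stood beside 1.30 ± 0.391 FPKM in L4 CNT and 0.529 ± 0.410 in L4 TM, on 28 and 11 reads (interaction 1.31, SE 0.305, limma adjusted p = 0.00408). In the L4 comparison itself ins-11 lay under the filter. The alternatives that tested it there gave no call (limma adjusted p from 0.0753 to 0.0982). The interaction for ins-7 (1.15, limma adjusted p = 0.0448) lost its call in 18 alternatives, 12 of which left out a single library, each library but EMBRYO CNT replicate 3, EMBRYO TM replicate 2, L4 CNT replicate 4 and L4 TM replicate 4 (adjusted p up to 0.231 over the 18). The antagonist ins-17 gave 0.05 (95% interval -0.62 to 0.72), and ins-4 gave -0.23 (-0.75 to 0.29). ins-18 gave -0.52 (limma adjusted p = 0.298) and -0.80 (0.0263) without L4 TM replicate 4. Without L4 TM replicate 1, ins-23 went from -0.91 (0.101) to -1.11 (limma adjusted p = 0.0402) and ins-37 from 0.68 (0.124) to 0.87 (0.0363).

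The control groups formed the background to both TM effects, and more genes were called between them than in either TM comparison. Of 21 members tested, 18 were higher in EMBRYO CNT than in L4 CNT, 2 were lower and only ins-11 did not pass the test, in a comparison in which 43.2% of 14221 genes were higher and 40.1% were lower. All 20 kept their adjusted p under 0.05 in all alternatives that tested them. The median was 1.15 for the 21 members and 0.08 for all genes. Of the 21, 11 exceeded 1 FPKM on average in only 1 of the 2 groups. Of the 10 that did so in both, 8 were higher and 1 was lower.

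All 3 antagonists were higher in EMBRYO CNT. The ratio of mean FPKM was 4.44 for ins-17, 6.45 for ins-18 and 2.82 for ins-1, and no library overlapped. Of the agonists, daf-28 averaged 3.98 ± 1.08 FPKM in EMBRYO CNT and 0.502 ± 0.442 in L4 CNT (log2 difference 1.75, limma adjusted p = 4.95e-05), and ins-35 averaged 5.70 ± 1.30 and 0.140 ± 0.0989, the latter on 4 reads. ins-3 and ins-4 were 1.95-fold and 2.17-fold higher. Of the 5 agonists tested, only ins-7 went the other way, at 1.97 ± 0.700 FPKM in EMBRYO CNT and 11.2 ± 5.31 in L4 CNT (log2 difference -1.98, limma adjusted p = 5.85e-05). ins-19 did so as well and by more (-3.51, limma adjusted p = 2.81e-07), with 15 reads in EMBRYO CNT and 456 in L4 CNT. ins-2 was 44.6-fold higher in EMBRYO CNT, on 500 and 10 reads. Of the neuronal markers, 7 of 8 were higher in EMBRYO CNT and snb-1 was lower (median 1.44), beside 43.2% and 40.1% of all genes. Their sums were 216 to 252 FPKM in EMBRYO CNT and 212 to 268 in L4 CNT because snb-1 alone made up most of both. The part of these in the result was not tested.

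The peptides are cut from precursors and released from dense core vesicles, so the genes of these steps were examined as well. In EMBRYO TM, 7 of 10 were lower and 2 were higher, with a median of -0.89, beside 27.0% and 25.7% of all genes. The proprotein convertase gene egl-3 averaged 201 ± 13.3 FPKM in EMBRYO CNT and 71.2 ± 12.5 in EMBRYO TM, its chaperone gene sbt-1 191 ± 15.1 and 74.3 ± 7.39, and the carboxypeptidase gene egl-21 189 ± 8.71 and 82.0 ± 11.6. asna-1, an ATPase gene known to promote insulin secretion in the worm, averaged 132 ± 10.8 and 77.3 ± 15.6. The convertase genes bli-4 and aex-5 were the ones that rose. In L4 TM, 6 of 9 tested were lower and only bli-4 was higher (median -0.61), beside 15.8% and 20.3% of all genes. aex-5 was among the listed genes that fell. The counts of the list were the same without L4 TM replicate 4 (median -0.55). Of the 10, 8 were higher in EMBRYO CNT than in L4 CNT, beside 43.2% of all genes.

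Genes of the receptor and its pathway were called in both directions. daf-2 averaged 87.8 ± 13.9 FPKM in EMBRYO CNT and 65.2 ± 20.2 in EMBRYO TM and did not pass the test, and it fell from 30.1 ± 2.42 to 23.1 ± 1.99 in the L4 groups. Of the 10 pathway genes reported here, 4 were lower in EMBRYO TM (ist-1, pdk-1, akt-2 and daf-16), sgk-1 was higher and 5 did not pass the test. Over all genes in that comparison, 27.0% were lower and 25.7% were higher. In L4 TM, where 15.8% of all genes were lower and 20.3% were higher, 9 pathway genes were tested. Of these, 3 were lower (daf-2, akt-2 and sgk-1), aap-1 was higher and 5 did not pass the test. Without L4 TM replicate 4 the same 3 were lower and 0 were higher. akt-2 was called lower in both, from 31.8 ± 0.421 to 16.1 ± 0.510 FPKM in the EMBRYO groups and from 9.62 ± 0.129 to 4.59 ± 0.621 in the L4 groups.

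Most of the tested genes known as outputs of DAF-16 fell with TM in both stages. This list was chosen with earlier results of these data known, so its counts are a description and not an independent test. In EMBRYO TM, 5 of 7 tested were lower and 0 were higher (median -2.01), beside 27.0% and 25.7% of all genes. The superoxide dismutase gene sod-3 averaged 60.3 ± 3.62 FPKM in EMBRYO CNT and 14.2 ± 1.54 in EMBRYO TM, the metallothionein gene mtl-1 1704 ± 260 and 300 ± 42.0, the small heat shock gene hsp-12.6 700 ± 75.3 and 60.6 ± 23.9, and sod-5 63.6 ± 8.33 and 1.37 ± 0.282. dod-3 and icl-1 did not pass the test. In L4 TM, 5 of 6 tested were lower and 0 were higher, beside 15.8% and 20.3% of all genes. There sod-3 did not pass the test, and the counts of the list were the same without L4 TM replicate 4. Of the 7 tested between the controls, 6 were higher in EMBRYO CNT and icl-1 was lower, beside 43.2% and 40.1% of all genes.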

How the data were processed

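Poly(A) RNA of 16 libraries in 4 groups was analysed, grouped by the sample labels. The authors aligned reads with HISAT2 2.0.5, counted them with featureCounts 1.5.0-p3 and deposited FPKM values, the number of fragments scaled to gene length and library size. Genome build and strand setting are not given in the sources used here. The authors' group means were not used. Gene names came from the WBcel235 annotation (43469 genes) and RefSeq (1859), and 1261 genes had none.

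FPKM times gene length gave whole reads for 100% of values within 0.01, so reads could be recovered. The library size behind each FPKM value differs from the total of these reads by a factor that varies between libraries. PCR duplicates cannot be separated, and intervals over libraries do not cover this.

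limma 3.58.1 in R 4.3.3 was run on log2(FPKM + 1), with a trend, for genes with a mean of at least 1 FPKM over the libraries compared. Fold changes on this scale understate changes of low genes. P-values are two-sided, adjusted by Benjamini-Hochberg over all genes tested. Other fold values are ratios of mean FPKM. The test was run on simulated data with known changes. Python 3.11.15 with pandas 2.3.3 was used for tables and matplotlib 3.10.9 for plots.

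Members with a group mean of at least 1 FPKM are described and the others listed. The members and all gene lists were chosen with earlier results of these data known. The intestine marker opt-2 was not matched. Part of the list of pathway genes is not reported here. Of the other marker lists, oocyte and germline genes gave 3 of 7 higher and 0 lower in EMBRYO TM and 6 of 7 higher and 0 lower in L4 TM. Sperm genes gave 2 of 3 higher and 1 lower, then 0 of 3 higher and 1 lower. Larval and moulting genes gave 2 of 6 higher and 3 lower, then 1 of 5 higher and 0 lower. Intestine genes gave 3 of 5 higher and 2 lower, then 0 of 5 higher and 3 lower. Without L4 TM replicate 4 the L4 counts were 7 oocyte and germline genes higher, 2 sperm genes lower and 1 larval gene lower, and were otherwise the same. Early embryo genes were under the filter.

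Alternatives were pseudocounts of 0.1 and 5, no filter (genes with at least 1 read) or a filter of 5 FPKM, TPM and total-read scaling, protein-coding genes alone, voom on recovered reads, a single fit of all 16 libraries, blocking on replicate number, a fold change threshold and each library left out. Voom without L4 TM replicate 4 was added after seeing the data. Count models other than voom were not run. No sequences were used here.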

Additional observations from a re-analysis of the deposited data

Results flagged for a closer look

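Within each group of 4 libraries, the gap of the highest or lowest library to its nearest neighbour was compared with the range of the group, for the 23 members that reached 1 FPKM. This singled out 6 of 90 groups of values, where chance gives about 1 in 20 for continuous values. A group with reads in only 1 library is always singled out, so that rate does not hold for it. ins-7 was 14.37 FPKM in L4 TM replicate 4, above the other 3 libraries, and this is the only one of the 6 in that library. ins-10 was 6.838 FPKM in EMBRYO CNT replicate 4, and 0.1721 FPKM in L4 TM replicate 1, the latter from a single read. ins-18 was low at 3.187 FPKM in EMBRYO TM replicate 4, and ins-36 was low at 0.4828 FPKM in EMBRYO TM replicate 2. ins-25 was 0.1794 FPKM in L4 CNT replicate 1, also a single read.

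The TM effect differed between the stages by the interaction test for 9 members, given as the EMBRYO effect minus the L4 effect on the log2 scale. Of all 13856 genes tested, 14.4% had a lower value and 14.8% a higher value. The values of the members were -2.893 for ins-2, -1.872 for ins-20, -1.503 for ins-29, -1.453 for ins-35, -1.241 for ins-10 and -1.022 for ins-27. They were 1.467 for ins-19, 1.308 for ins-11 and 1.148 for ins-7. ins-2, ins-10, ins-20 and ins-35 averaged 0.0430 to 0.287 FPKM in the L4 groups and passed the filter through the EMBRYO groups. ins-19 was near 0 in the EMBRYO groups and passed it through the L4 groups. Only ins-2, ins-11, ins-27 and ins-29 kept the call in all alternatives that tested them.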

How the results depend on the processing

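Calls for ins-2, ins-3, ins-4, ins-10, ins-17, ins-18, ins-20, ins-23, ins-27, ins-29 and ins-35 in EMBRYO TM, and for ins-4, ins-17 and ins-19 in L4 TM, kept an adjusted p under 0.05 in all alternatives that tested them. The count of members called in EMBRYO TM was 17, and was 9 with the fold change threshold and 6 with a filter of 5 FPKM, where only 6 were tested. In L4 TM it was 4, and was 2 under each of these. Between the controls it was 20, was 7 with the filter of 5 FPKM, which tested 7, and was 25 with no filter (22 higher and 3 lower of 40 tested). For the interaction it was 9, and was 2 with that filter, which tested 4, and 4 with voom. Leaving out each library gave 14 to 16, 3 to 5, 19 to 20 and 6 to 10 in the same order. With the replicate number as a block, 1 member was higher and 13 lower in EMBRYO TM, 1 and 3 in L4 TM, 18 and 2 between the controls, and 2 and 6 for the interaction, where the calls lost were ins-11, ins-22 and ins-37 in EMBRYO TM and ins-7 in the interaction. Over all genes, this fit gave 3370 higher and 3632 lower of 14930 in EMBRYO TM, and 1324 and 1363 of 11964 in L4 TM. It gave 6143 and 5656 of 14221 between the controls, and 1958 and 1846 of 13856 for the interaction. Same-numbered libraries did not deviate together (correlations from -0.31 to 0.20), so the numbers were not taken to pair the samples.

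Changes of sign came in values that did not pass the test, apart from ins-19. The EMBRYO effect on ins-34 was -0.24 to 0.054 without single libraries. The control difference of ins-11 was -0.0025 with a pseudocount of 0.1 and -0.10 to 0.11 without single libraries. In the interaction, ins-17 was -0.25 with a pseudocount of 5, -0.10 with total-read scaling, -0.29 with voom without L4 TM replicate 4, and -0.27 to 0.20 without single libraries. ins-22 was 0.34 with a pseudocount of 0.1, 1.02 with voom and -0.32 to 0.0081 without single libraries, ins-18 was 0.14 and 1.03 with the first 2 of these, ins-4 was 0.12 with a pseudocount of 0.1 and 0.32 with voom without L4 TM replicate 4, and ins-19 was -0.38 in the latter. The cause was not tested.

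Scaling by total reads moved the median of all genes by -0.15 in EMBRYO TM, 0.19 between the controls and -0.13 in the interaction, voom by -0.17, 0.24 and -0.10, and TPM by 0.17 between the controls. Few reads per member limit what can be detected in the 17 low members, of which 1 was called in EMBRYO TM, 1 in L4 TM and 4 between the controls with no filter.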
